A study of Homo sapiens with 6 samples.

Results

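The human genes for the chains of integrins and laminins were examined in HaCaT keratinocytes treated with dacomitinib. Members were the protein-coding genes of the deposited table whose symbols name an integrin alpha chain, an integrin beta chain or a laminin chain. The rule reads symbols and gene type alone, and 37 of the 58735 genes are described: 18 alpha chains, 8 beta chains and 11 laminin chains.

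The first group was HaCaT cells given dacomitinib for 48 h, in 3 libraries, and the other was control HaCaT cells, also in 3 libraries. All 6 samples carry the genotype label WT, and all came from HaCaT, an established, spontaneously immortalised line of human keratinocytes, so the line itself is 1 cell background. Dacomitinib irreversibly inhibits the kinases of the EGFR family. Treatment began at 70% confluence according to the design text, which ties 0.1% DMSO to the experimental group. The sources used here give neither the dose nor what the control cells received. They do not say either whether libraries of a group came from separate cultures, and the p-values then reflect only how far these samples differ from each other, a spread that may be technical. The dacomitinib columns carry a letter found in no label and were assigned by elimination; every direction given here rests on that assignment, and their numbers only name them.

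Integrins are receptors made of 1 alpha and 1 beta chain that hold cells to the matrix and to each other. Laminins are secreted trimers of an alpha, a beta and a gamma chain and form the basement membrane under an epithelium. In skin the receptor of ITGA6 and ITGB4 sits in hemidesmosomes and binds laminin-332, whose chains include LAMA3 and LAMB3. The receptors of ITGA3 with ITGB1 and of ITGA2 with ITGB1 bind laminins and collagens, and those of ITGAV recognise RGD-bearing ligands such as fibronectin and latent TGF-beta.

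Values are FPKM, fragment counts divided by gene length and by a library size that the authors set, which allows levels of different genes to be compared per length. Each gene has a fixed length there, whichever of its transcripts the cells used, so comparisons between genes are approximate. Libraries held 15171200 to 16179273 fragments on genes with dacomitinib and 14960650 to 16166582 in controls. The library size inside the authors' FPKM was 1.07 ± 0.0244 times a library's own sum with dacomitinib and 0.952 ± 0.00449 times in controls (SD, n = 3), so a scaling between the groups is already part of the values. When each library was instead set to a fixed sum (TPM), the median difference of all genes tested was 0.23 on the log2 scale, against -0.06 as deposited, a shift of 0.29. Differences smaller than this shift can turn with the scaling, and each such case is given beside its value.

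A gene was tested where its mean over the 6 libraries reached 1 FPKM, the expression limit, and was called at a limma adjusted p under 0.05. Of the 37 members, 19 were tested and 14 were called, which is 73.7%, against 60.2% of the 13748 genes tested and 66.2% of the protein-coding ones. The share called among the members is therefore not far from that of other protein-coding genes. Of the members tested, 5 (26.3%) rose and 9 (47.4%) fell, against 25.4% and 34.8% of all genes. Set to TPM, 10 members were higher and 3 lower, against 42% higher and 19.8% lower among all genes. The groups did not overlap for 15 of the 19 members, and for 67.1% of all genes tested. The median log2 difference of the 19 was -0.10 as deposited and 0.18 in TPM, near the -0.06 and 0.23 of all genes. In bulk RNA, fewer cells of a type and less RNA per cell cannot be told apart.

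Single chains moved in opposite directions. With every one of the 17 other settings tried, 7 members kept their call and its direction. LAMB2, LAMB3, ITGB4 and ITGAV rose and LAMB1, ITGB5 and ITGA2 fell.

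**Figure D1:**
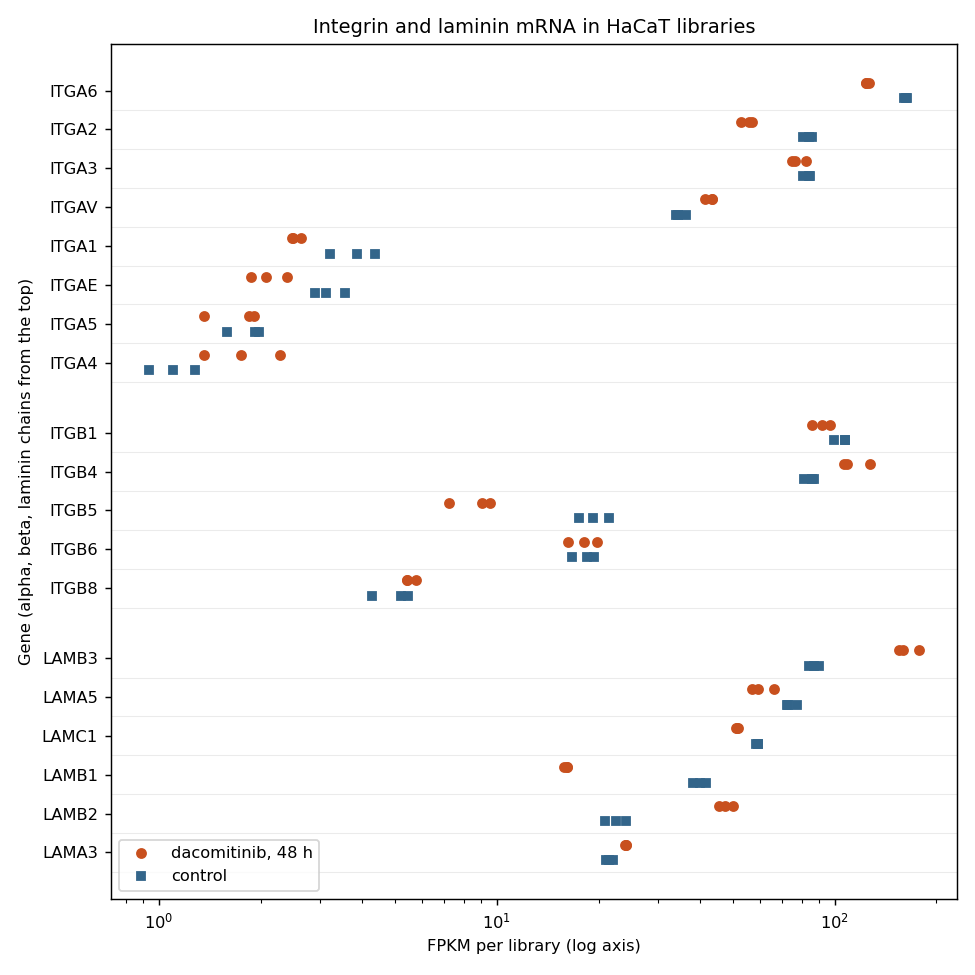
FPKM of the 19 tested members on a log axis, 1 point per library, with dacomitinib libraries as circles above control libraries as squares for each gene. Circles and squares stand apart for 15 genes, furthest for LAMB1, LAMB2, ITGB5 and LAMB3 among the well-expressed ones.

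The sequences below show the stretch around the start of 4 laminin genes that moved. The beta chains LAMB2 and LAMB1 moved in opposite directions. The chains LAMB3 and LAMA3 of laminin-332 both rose as deposited, but unequally, by 0.91 and 0.15 on the log2 scale. The sequences are RefSeq windows of GRCh38.p14, from 250 bases before an annotated start to 50 after it. Capitals mark the AP-1 motif TGANTCA and the GC box GGGCGG, searched on both strands.
LAMB3, chr1:209651325-209651624, minus strand: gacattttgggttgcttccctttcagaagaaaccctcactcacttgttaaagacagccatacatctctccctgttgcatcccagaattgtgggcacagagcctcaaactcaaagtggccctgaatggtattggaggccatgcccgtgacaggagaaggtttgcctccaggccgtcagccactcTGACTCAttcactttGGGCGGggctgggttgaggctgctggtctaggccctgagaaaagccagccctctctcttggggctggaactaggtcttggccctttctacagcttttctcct
LAMA3, chr18:23872770-23873069, plus strand: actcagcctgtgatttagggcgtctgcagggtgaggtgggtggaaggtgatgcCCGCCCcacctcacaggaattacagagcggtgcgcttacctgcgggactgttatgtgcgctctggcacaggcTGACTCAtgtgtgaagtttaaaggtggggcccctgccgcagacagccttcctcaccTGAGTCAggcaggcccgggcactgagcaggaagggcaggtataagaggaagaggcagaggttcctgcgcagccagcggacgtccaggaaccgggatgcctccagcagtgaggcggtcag
LAMB2, chr3:49133001-49133300, minus strand: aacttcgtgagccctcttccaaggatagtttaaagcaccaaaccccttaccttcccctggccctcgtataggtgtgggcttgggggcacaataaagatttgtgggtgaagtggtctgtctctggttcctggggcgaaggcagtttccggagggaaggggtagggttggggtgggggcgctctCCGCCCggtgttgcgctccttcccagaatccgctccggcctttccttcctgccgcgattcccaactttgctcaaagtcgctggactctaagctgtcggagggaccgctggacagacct
LAMB1, chr7:108003112-108003411, minus strand: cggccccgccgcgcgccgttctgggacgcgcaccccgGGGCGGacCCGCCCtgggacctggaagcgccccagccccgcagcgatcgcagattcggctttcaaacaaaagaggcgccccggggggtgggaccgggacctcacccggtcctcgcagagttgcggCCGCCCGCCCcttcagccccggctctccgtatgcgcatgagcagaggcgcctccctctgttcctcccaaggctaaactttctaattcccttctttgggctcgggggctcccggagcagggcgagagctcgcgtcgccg

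The LAMA3 and LAMB3 windows shown lie at starts inside the genes, and the LAMB3 window is 1 of 3 given for that gene. The AP-1 motif begins 125 and 69 bases before the LAMA3 start and 67 bases before this LAMB3 start. It is not in the windows of LAMB2 and LAMB1, nor in the other windows of LAMB3. Of the 37 members, 26 had at least 1 window, 33 in all, and 3 of these (9.09%) held the AP-1 motif, against 7.71% of all 35116 windows; the third was that of ITGA5. The GC box, which all 4 windows hold, was found in 19 members' windows (57.6%) and in 45.0% of all windows. A motif match is a description of letters and not a site of binding. Of the other motifs searched, TEAD (GGAATG) was in 4 of the members' windows (12.1%) against 14.0% of all, ETS (CCGGAA) in 5 (15.2%) against 17.2%, and FOXO (GTAAACA) in 0 against 3.42%.

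All 6 laminin chains tested were called, 3 higher and 3 lower as deposited and 3 higher and 1 lower in TPM, beside the 60.2% of all genes and 66.2% of protein-coding genes called; 6 chains are too few to set against these shares. LAMB3, the beta chain of laminin-332, was the most abundant laminin mRNA in both groups. It lies on chromosome 1 from 209614870 to 209652466 on the minus strand (GRCh38). LAMB3 had 178, 155 and 159 FPKM with dacomitinib, against 86.6, 89.6 and 83.8 FPKM in controls. Every dacomitinib library was above every control library. LAMB3 thus rose 1.89-fold by the ratio of means, with a log2(FPKM + 1) difference of 0.91 ± 0.06 (SE, limma adjusted p = 3.74e-05).

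LAMA3, the alpha chain of laminin-332, rose less and was at 24.2, 24.0 and 24.0 FPKM with dacomitinib, against 21.5, 21.1 and 22.1 FPKM in controls. The 3 dacomitinib libraries lay very close together, just above the highest control. LAMA3 rose by 0.15 ± 0.04 on the log2 scale (SE, adjusted p = 0.0141), a call that was lost without control replicate 1 (adjusted p = 0.0523).

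Within libraries the balance of these chains differed too. LAMB3 exceeded LAMA3 by 2.77 ± 0.10 on the log2 scale with dacomitinib and by 2.00 ± 0.08 in controls (SD, n = 3). A ratio or share within a library does not depend on the scaling between libraries. The groups did not overlap, and the exact permutation test gave p = 0.1 (two-sided), the smallest that 3 against 3 libraries allow. The same holds for all 8 tested ratios and shares within a library. Of these, 5 were added after their values were seen, so for them the outcome was known beforehand.

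LAMB2 and LAMB1 are the beta chains of the laminins that contain LAMC1, and they changed in opposite directions. LAMB2, on chromosome 3 from 49121114 to 49133118, had 50.0, 45.4 and 47.5 FPKM with dacomitinib, against 22.6, 24.1 and 20.8 FPKM in controls. LAMB1, on chromosome 7 from 107923799 to 108003255, had 16.1, 15.8 and 16.1 FPKM with dacomitinib, against 40.0, 38.0 and 41.5 FPKM in controls. The order of the pair was opposite in the groups, in every library: LAMB2 was the higher with dacomitinib and LAMB1 in controls. LAMB2 rose 2.12-fold (log2 difference 1.05 ± 0.06, SE, adjusted p = 2.44e-05), and LAMB1 fell to 0.402 times its control mean (log2 difference -1.26 ± 0.05, SE, adjusted p = 3.16e-06). The log2 ratio of LAMB2 to LAMB1 was 1.57 ± 0.06 with dacomitinib and -0.83 ± 0.17 in controls (SD, n = 3), a difference of 2.40. That ratio, like the 4 other pairs added to the measures, was chosen after its values were seen.

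The other chains of the same trimers stood closer to the control level. LAMC1, a gamma chain of most other laminins, had 51.0, 51.4 and 51.6 FPKM with dacomitinib, against 59.2, 59.1 and 58.4 FPKM in controls. LAMA5, the alpha chain of the laminins found under most mature epithelia, had 66.3, 59.4 and 56.9 FPKM with dacomitinib, against 77.5, 72.1 and 72.7 FPKM in controls. Both lay below the controls in every dacomitinib library. As deposited LAMC1 fell by 0.19 and LAMA5 by 0.28 on the log2 scale (adjusted p = 0.00285 and 0.00922), but in TPM they differed by 0.12 and 0.03 in the other direction, short of the threshold. After quantile normalization neither passed, at 0.084 for LAMC1 and -0.038 for LAMA5 (limma adjusted p = 0.136 and 0.561).

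FPKM of the 11 laminin chains summed to 364 ± 18.3 with dacomitinib and 304 ± 4.07 in controls (SD, n = 3). LAMB3 made up 45.0 ± 0.963% of this sum with dacomitinib and 28.5 ± 0.813% in controls. LAMB1 made up 4.40 ± 0.192% with dacomitinib and 13.1 ± 0.693% in controls, while LAMB2 made up 13.1 ± 0.224% with dacomitinib and 7.40 ± 0.479% in controls. LAMA5 made up 16.7% with dacomitinib and 24.4% in controls, and LAMC1 14.1% with dacomitinib and 19.4% in controls. LAMA3 stood at 6.61 ± 0.297% with dacomitinib and 7.11 ± 0.249% in controls.

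**Figure D2:**
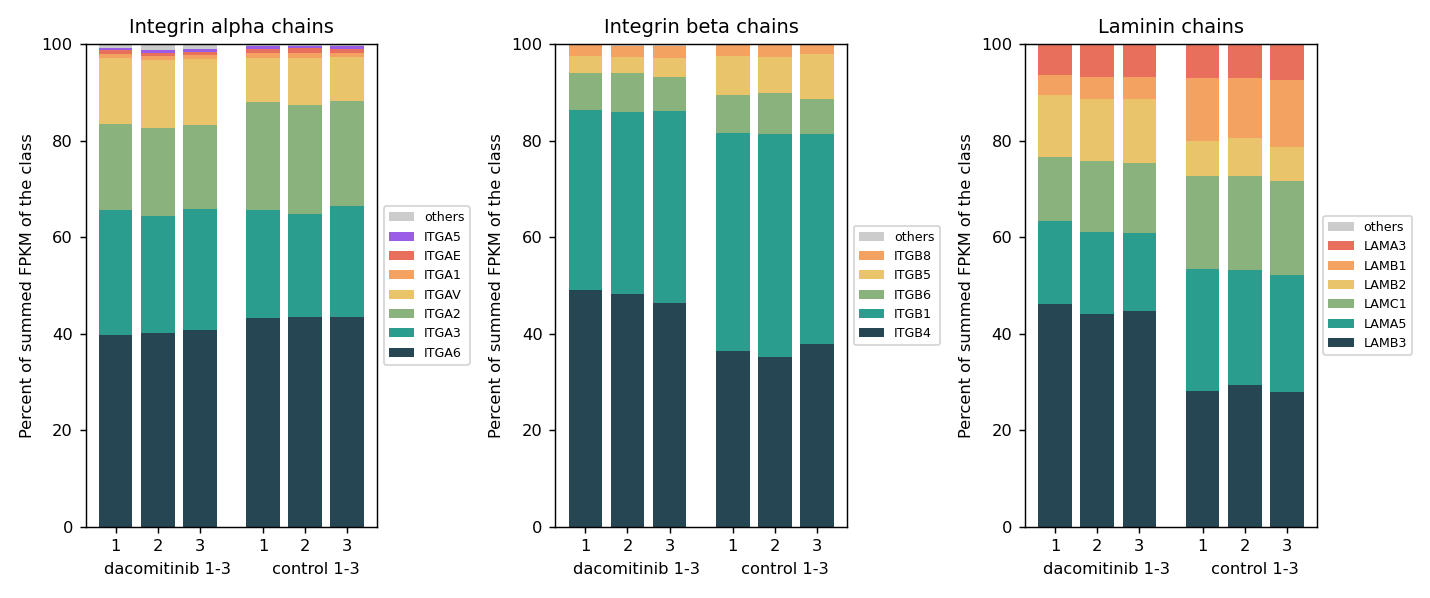
Percent of the summed FPKM of integrin alpha chains, integrin beta chains and the 11 laminin chains taken by each gene, 1 bar per library, with the dacomitinib libraries left of the controls. The parts for LAMB3 (45.0% of laminin FPKM with dacomitinib, 28.5% in controls), LAMB1 (4.40% and 13.1%) and ITGB4 (47.8% of beta chain FPKM and 36.4%) differ most plainly between the groups.

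Among beta chains, 5 of 8 were tested, and ITGB4 rose while ITGB5 and, as deposited, ITGB1 fell. As deposited 25.4% of all genes tested rose and 34.8% fell, and 5 chains are too few to set against these shares. ITGB4 pairs with ITGA6 alone and carries the long cytoplasmic tail that links hemidesmosomes to keratin filaments. ITGB4 had 127, 109 and 107 FPKM with dacomitinib, against 85.9, 81.0 and 86.6 FPKM in controls. All dacomitinib libraries were above all controls, with library 1 the furthest. The log2 difference was 0.43 ± 0.07 (SE, adjusted p = 0.00242), with values from 0.35 to 0.75 over the other settings.

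ITGB1, the common partner of most alpha chains, had 96.7, 85.5 and 91.5 FPKM with dacomitinib, against 107, 107 and 99.5 FPKM in controls. The groups came close but did not overlap. As deposited ITGB1 fell by 0.19 ± 0.06 on the log2 scale (SE, adjusted p = 0.0269), yet in TPM it was higher by 0.12 (adjusted p = 0.0415), so its direction depends on the scaling. The call was also lost without dacomitinib replicate 2 or 3 (adjusted p = 0.0668 and 0.0698) and without control replicate 1 or 2 (adjusted p = 0.0919 and 0.0792). Nor did ITGB1 pass with median ratios, at -0.11, or after quantile normalization, at -0.0053 (limma adjusted p = 0.144 and 0.918). With no expression filter it missed the threshold as well (limma adjusted p = 0.0602). ITGB4 took 47.8 ± 1.32% of beta chain FPKM with dacomitinib and 36.4 ± 1.37% in controls, and ITGB1 38.3 ± 1.29% with dacomitinib and 45.0 ± 1.46% in controls (SD, n = 3). ITGB4 was therefore the leading beta chain mRNA in each dacomitinib library and ITGB1 in each control library.

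ITGB5, which pairs with ITGAV to form a vitronectin receptor, had 9.55, 7.23 and 9.05 FPKM with dacomitinib, against 19.2, 17.5 and 21.5 FPKM in controls. The highest dacomitinib library was far below the lowest control. ITGB5 fell to 0.443 times its control mean, a log2 difference of -1.09 ± 0.11 (SE, adjusted p = 0.000237), and to 3.60 ± 0.374% of beta chain FPKM, against 8.37 ± 0.921% in controls.

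ITGB6 and ITGB8, the other partners of ITGAV here, are chains of receptors that activate latent TGF-beta. ITGB6 had 19.8, 18.1 and 16.2 FPKM with dacomitinib, against 18.5, 19.4 and 16.7 FPKM in controls. ITGB8 had 5.44, 5.43 and 5.78 FPKM with dacomitinib, against 5.21, 5.48 and 4.27 FPKM in controls. The groups overlapped for both, and neither passed as deposited (log2 differences -0.01 and 0.14, adjusted p = 0.911 and 0.226). In TPM they were higher by 0.30 and 0.46 and both passed (adjusted p = 0.0130 and 0.00566). Of ITGB6's length, 20.6% is shared with a non-coding gene on the same strand, which was at 0.136 FPKM with dacomitinib and 0.114 FPKM in controls.

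Among alpha chains, 8 of 18 were tested, and 1 rose and 4 fell as deposited, against 3 higher and 1 lower in TPM. Of all genes tested, 25.4% rose and 34.8% fell as deposited, and 42% were higher and 19.8% lower in TPM. The 8 chains are too few to set against these shares. ITGA6, the partner of ITGB4, was the most abundant alpha chain. ITGA6 had 126, 124 and 124 FPKM with dacomitinib, against 162, 164 and 161 FPKM in controls. Libraries of a group lay close together and the groups stood well apart. As deposited ITGA6 fell by 0.38 ± 0.04 on the log2 scale (SE, adjusted p = 0.000191); in TPM the difference was -0.06 and did not pass (adjusted p = 0.213). Within libraries ITGA6 took 40.2 ± 0.538% of alpha chain FPKM with dacomitinib and 43.4 ± 0.109% in controls (SD, n = 3).

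The chains of the hemidesmosome receptor thus differed from each other. The log2 ratio of ITGB4 to ITGA6 was -0.13 ± 0.12 with dacomitinib and -0.94 ± 0.06 in controls (SD, n = 3), a difference of 0.81. In each dacomitinib library the mRNAs were near parity, and in each control library ITGA6 was well above ITGB4.

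ITGA2, the alpha chain of the collagen receptor of keratinocytes, had 57.1, 55.9 and 52.8 FPKM with dacomitinib, against 84.0, 85.6 and 80.6 FPKM in controls. Every dacomitinib library was well below every control. ITGA2 fell by 0.58 ± 0.05 on the log2 scale (SE, adjusted p = 7.77e-05) and by 0.27 in TPM. It took 17.8 ± 0.392% of alpha chain FPKM with dacomitinib and 22.3 ± 0.456% in controls. Relative to ITGB1 within a library its log2 level was -0.72 ± 0.10 with dacomitinib and -0.33 ± 0.02 in controls (SD, n = 3).

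ITGA3, whose receptor with ITGB1 binds laminin-332 and LAMA5 laminins, had 82.1, 74.7 and 76.2 FPKM with dacomitinib, against 84.0, 80.6 and 84.8 FPKM in controls. The groups overlapped, and the log2 difference of -0.10 ± 0.05 did not pass (SE, adjusted p = 0.133). It was 0.22 in TPM and 0.12 after quantile normalization, both past the threshold, while without dacomitinib replicate 1 it was -0.14 and passed (adjusted p = 0.0369). No direction held for ITGA3 across scalings.

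ITGAV, the alpha chain that pairs with ITGB5, ITGB6 and ITGB8 among others, had 43.4, 43.3 and 41.3 FPKM with dacomitinib, against 34.3, 36.3 and 33.9 FPKM in controls. The groups did not overlap, and ITGAV rose by 0.29 ± 0.04 on the log2 scale (SE, adjusted p = 0.00158). It took 13.8 ± 0.233% of alpha chain FPKM with dacomitinib and 9.30 ± 0.267% in controls. As deposited none of its partners ITGB1, ITGB5, ITGB6 and ITGB8 was called higher with it, whereas in TPM ITGB1, ITGB6 and ITGB8 were. The log2 ratio of ITGB5 to ITGAV was -2.32 ± 0.23 with dacomitinib and -0.85 ± 0.20 in controls, and that of ITGB6 to ITGAV was -1.25 ± 0.11 with dacomitinib and -0.94 ± 0.07 in controls (SD, n = 3).

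**Figure D3:**
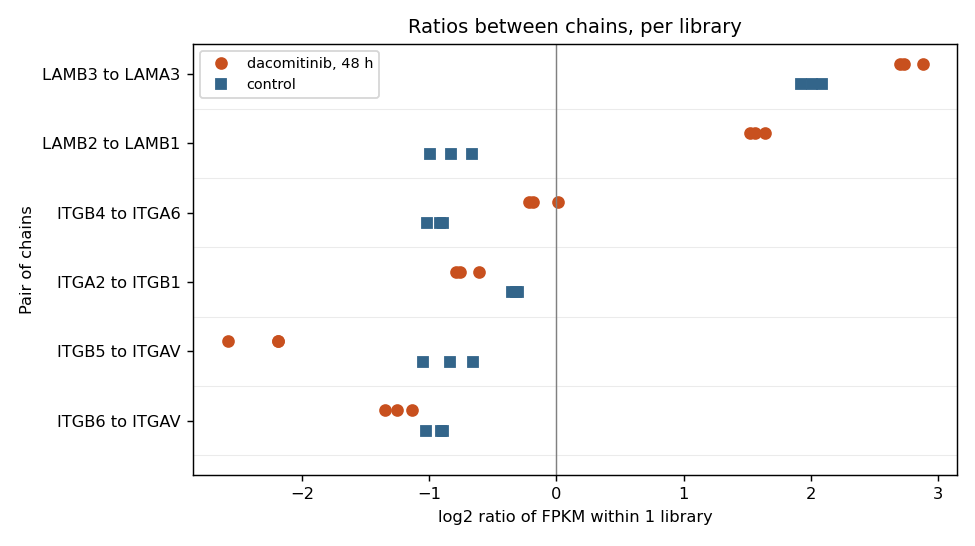
Log2 ratio of FPKM between chains that share a trimer, a receptor or a role, within each library, with dacomitinib as circles above control as squares. No pair overlaps between the groups. LAMB2 to LAMB1 differs most, at 1.57 with dacomitinib and -0.83 in controls. Every pair except LAMB3 to LAMA3 was chosen after its values were seen, so for those pairs the outcome was known beforehand.

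The other alpha chains were near the expression limit. ITGA1, a collagen receptor chain whose gene lies 30.1 kb from ITGA2 on chromosome 5, had 2.64, 2.50 and 2.48 FPKM with dacomitinib, against 3.85, 4.36 and 3.21 FPKM in controls. ITGAE, which forms the E-cadherin receptor of lymphocytes in epithelia, had 2.39, 2.07 and 1.87 FPKM with dacomitinib, against 3.12, 3.57 and 2.89 FPKM in controls. The groups did not overlap for either. Both fell by 0.43 on the log2(FPKM + 1) scale (adjusted p = 0.00948 and 0.00998), and in TPM the differences of -0.24 and -0.25 did not pass.

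Both genes share exon bases with other genes, and the strand used in counting is not stated. ITGAE shares 427 bases, 6.41% of its length, with HASPIN on the opposite strand. HASPIN, a histone H3 kinase of mitosis, was at 1.86 ± 0.506 FPKM with dacomitinib and 12.6 ± 1.01 FPKM in controls (SD, n = 3). ITGA1 shares 475 bases, 2.56% of its length, with PELO on the same strand, which was at 6.21 ± 0.429 FPKM with dacomitinib and 10.7 ± 0.249 FPKM in controls. Their part in the values of ITGAE and ITGA1 was not tested. In all, 22 members share exon bases with another gene, 11 of them among those tested, and ITGAE and ITGB6 were the 2 tested members with more than 5% of their length shared.

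ITGA5, the alpha chain of the fibronectin receptor, had 1.36, 1.92 and 1.85 FPKM with dacomitinib, against 1.99, 1.59 and 1.93 FPKM in controls. The groups overlapped and the log2 difference of -0.07 ± 0.13 did not pass (SE, adjusted p = 0.662), with a value of 0.18 in TPM that did not pass either. ITGA4, a chain typical of leukocytes, had 1.36, 2.29 and 1.75 FPKM with dacomitinib, against 1.10, 0.936 and 1.28 FPKM in controls. Each dacomitinib library was above each control, but the dacomitinib libraries were widely spread. The log2 difference of 0.40 ± 0.16 missed the threshold (SE, adjusted p = 0.0648), and it passed without dacomitinib replicate 1, at 0.52, in TPM, at 0.84, with median ratios, at 0.45, on recovered fragments, at 0.66, and in limma without a trend (adjusted p = 0.0432). ITGA4, at a mean of 1.45 FPKM, was the member just inside the expression limit, and ITGB7 was the one just outside it.

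**Figure D4:**
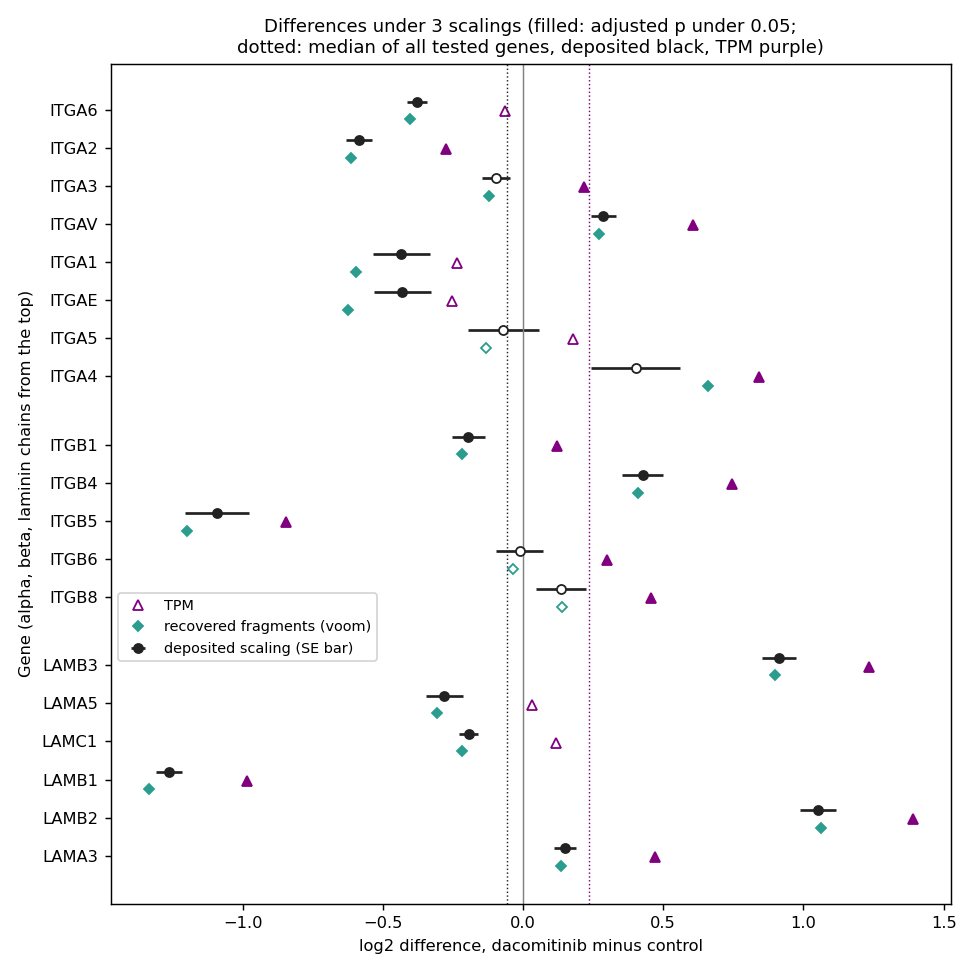
Log2 difference, dacomitinib minus control, of the 19 tested members as deposited (circles with SE bars), in TPM (triangles) and on recovered fragments (diamonds), filled where the adjusted p is under 0.05. ITGA3, ITGA5, ITGB1, ITGB6, LAMA5 and LAMC1 lie left of 0 as deposited and right of 0 in TPM, while LAMB2 (1.05), LAMB3 (0.91), LAMB1 (-1.26) and ITGB5 (-1.09) keep their side.

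The 18 members below the expression limit were not tested and are described by fragments summed over the 3 libraries of each group. Fragment sums, here and elsewhere, carry none of the scaling between libraries that the FPKM hold. For LAMA1 the mean was 0.165 FPKM with dacomitinib and 0.166 in controls, although its fragment sum was the larger with dacomitinib. ITGB7 had 159 fragments with dacomitinib and 81 in controls, ITGA7 136 and 54, ITGA10 135 and 46, LAMA1 133 and 117, and ITGA9 104 and 59, in that order of groups. ITGB7 shares 1886 bases, 42.1% of its length, with ZNF740 on the opposite strand. ZNF740 was at 8.27 FPKM with dacomitinib and 6.80 in controls, and its part in the ITGB7 fragments was not tested. The chains of the leukocyte integrins built on ITGB2 were scarce. ITGAX had 56 fragments with dacomitinib and 17 in controls, ITGAM 40 and 17, ITGB2, their common partner, 26 and 32, and ITGAL and ITGAD 0 and 1 each. ITGB3 and ITGA2B, which form the platelet fibrinogen receptor, had 9 and 10 fragments with dacomitinib and 0 and 9 in controls; a sum of 0 allows up to 3 fragments. The remaining laminin and integrin chains, LAMA2, LAMA4, ITGA11, LAMB4, LAMC3 and ITGA8, had between 0 and 36 fragments with dacomitinib and between 1 and 28 in controls.

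The cell type label was set against marker genes. Of 10 keratinocyte markers 9 were above the expression limit, and their FPKM summed to 915 to 1095 with dacomitinib and 1208 to 1284 in controls. KRT17 and PERP were called higher and KRT5, KRT14, KRT6A and DSP lower as deposited, while KRT5 and DSP did not pass in TPM. Keratin genes and RPSA have near-identical copies that could have taken part of their reads, so their values are uncertain. Sums over the markers of other cells, which also bear integrins and laminins, were low. The 13 leukocyte markers summed to 8.50 to 9.68 FPKM with dacomitinib and 12.7 to 13.9 in controls, with MS4A1, FCGR3A and SPI1 at 0 fragments in every library. Most of that sum was LCP1, called lower, at 7.35 FPKM with dacomitinib and 11.3 in controls. The other leukocyte markers were not tested and lay on both sides. CORO1A had 31 fragments with dacomitinib and 132 in controls. LAPTM5 had 22 and 91 in this order, PTPRC 2 and 13, and LYZ 2 and 3. CD14 had 65 and 55, CD53 46 and 10, NKG7 17 and 0, and CD3E and CD3D 5 and 0 each. The 8 endothelial markers summed to 10.6 to 13.5 FPKM with dacomitinib and 1.88 to 2.22 in controls, mostly from CDH5, a cadherin, at 10.0 and 1.15 FPKM in the same order, with KDR and EMCN at 0. The 6 platelet and megakaryocyte markers summed to 6.46 to 7.64 FPKM with dacomitinib and 2.79 to 3.82 in controls, with PF4, PPBP and GP9 at 0. Here GP1BA made up most, called higher, at 6.35 FPKM with dacomitinib and 2.50 in controls. The 9 fibroblast markers summed to 2.28 to 3.63 FPKM with dacomitinib and 0.853 to 1.27 in controls, with COL1A2 and THY1 at 0. COL3A1 was called higher, at 1.51 FPKM with dacomitinib and 0.705 in controls. DCN had 584 fragments with dacomitinib and 11 in controls, LUM 43 and 1, and COL1A1 107 and 143, in that order. The 7 melanocyte markers summed to 3.55 to 4.34 FPKM with dacomitinib and 2.54 to 2.87 in controls, with TYR at 0. The part of these differences in the members' values was not tested.

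Partners of the members were read from 4 lists. In the list of integrin adaptors and regulators, which link integrin tails to actin and to kinases, 35 of 46 genes were tested, and 12 rose and 12 fell as deposited, against 19 higher and 6 lower in TPM. Among all genes tested 25.4% rose and 34.8% fell as deposited, against 42% higher and 19.8% lower in TPM. The median log2 difference of the list was -0.07 as deposited and 0.24 in TPM, next to the -0.06 and 0.23 of all genes. NEDD9, a docking protein of focal adhesions, had 12.7, 11.8 and 11.4 FPKM with dacomitinib, against 1.26, 1.71 and 1.27 FPKM in controls. Its groups were far apart, with a log2 difference of 2.43 ± 0.09 (SE, adjusted p = 3.51e-06). CD47, a membrane protein that binds ITGAV and ITGB3 receptors, rose by 0.68 and TNS3, a tensin, by 0.62 on the log2 scale.

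The largest falls in this list were those of FLNA, TNS4 and ACTN1. FLNA, the filamin that binds beta chain tails, had 80.9, 94.1 and 89.9 FPKM with dacomitinib, against 207, 186 and 226 FPKM in controls. TNS4, a short tensin that lacks the actin-binding region of the others, had 19.1, 15.5 and 17.0 FPKM with dacomitinib, against 36.4, 36.6 and 37.8 FPKM in controls. ACTN1, an actinin that bridges integrins and actin, had 13.0, 12.5 and 12.1 FPKM with dacomitinib, against 24.7, 24.3 and 27.2 FPKM in controls. For each of these genes all dacomitinib libraries were below all controls. The log2 differences were -1.21 for FLNA, -1.06 for TNS4 and -0.96 for ACTN1, and all passed in TPM too. The kinase partner ILK was below the expression limit, with 143 fragments with dacomitinib and 90 in controls.

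All 7 hemidesmosome partners were tested, and 2 rose and 2 fell as deposited, against 3 higher and 1 lower in TPM. Among all genes 25.4% were higher and 34.8% lower as deposited, and 42% higher and 19.8% lower in TPM. A list of 7 genes is too short to set against these shares. COL17A1, the transmembrane collagen that binds ITGA6 and ITGB4, was at 81.4 ± 1.81 FPKM with dacomitinib and 71.8 ± 2.01 in controls. CD151, a tetraspanin that accompanies laminin-binding integrins, was at 26.3 ± 2.62 FPKM with dacomitinib and 22.0 ± 0.749 in controls (SD, n = 3). Both rose, by 0.18 and 0.24 on the log2 scale, and the basal keratins KRT14 and KRT5, to which hemidesmosomes anchor, fell by 0.87 and 0.34, with KRT5 not passing in TPM (-0.02). The other 3 did not pass as deposited, and PLEC, the plectin that ties ITGB4 to keratins, passed in TPM, at 0.26.

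Of 18 laminin partners and receptors 8 were tested, and 3 rose and 3 fell as deposited, against 4 higher and 0 lower in TPM. All genes tested had 25.4% higher and 34.8% lower as deposited, and 42% higher and 19.8% lower in TPM. A list of 8 genes is too short to set against these shares. BMP1, a protease that processes procollagens, had 24.3, 21.9 and 22.7 FPKM with dacomitinib, against 11.1, 11.5 and 10.4 FPKM in controls. NTN4, a netrin with a laminin-like N-terminal domain that binds laminin networks, had 66.6, 56.2 and 60.2 FPKM with dacomitinib, against 33.0, 34.4 and 29.2 FPKM in controls. Every dacomitinib library exceeded every control for both, with log2 differences of 1.00 ± 0.06 for BMP1 and 0.90 ± 0.08 for NTN4 (SE, adjusted p = 2.07e-05 and 0.000145). DAG1, dystroglycan, rose by 0.31. As deposited COL7A1, the collagen of anchoring fibrils, fell by 0.36, AGRN, a heparan sulfate proteoglycan that binds laminins, by 0.33 and RPSA, the laminin receptor that is also a ribosomal protein, by 0.25; none of the 3 passed in TPM, and RPSA was there at 0.07.

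Of 22 integrin ligands outside the laminins 9 were tested, and 3 rose and 2 fell as deposited, against 5 higher and 1 lower in TPM. Over all genes tested the shares were 25.4% higher and 34.8% lower as deposited, and 42% higher and 19.8% lower in TPM. A list of 9 genes is too short to set against them. CDH1, E-cadherin and the ligand of ITGAE, was at 84.8 ± 4.31 FPKM with dacomitinib and 61.6 ± 0.387 in controls. ICAM1, a ligand of the ITGB2 receptors, was at 4.24 ± 0.307 FPKM with dacomitinib and 2.47 ± 0.213 in controls (SD, n = 3). Both rose, by 0.45 and 0.59 on the log2 scale, and EDIL3, an RGD protein that binds ITGAV receptors, rose by 0.24. ADAM15, a disintegrin, fell by 0.97, and NRP1 by 0.36, though NRP1 did not pass in TPM. Fibronectin (FN1), tenascin-C (TNC) and VCAM1 were below the expression limit, with 1037, 34 and 44 fragments with dacomitinib and 593, 204 and 0 in controls.

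**Figure D5:**
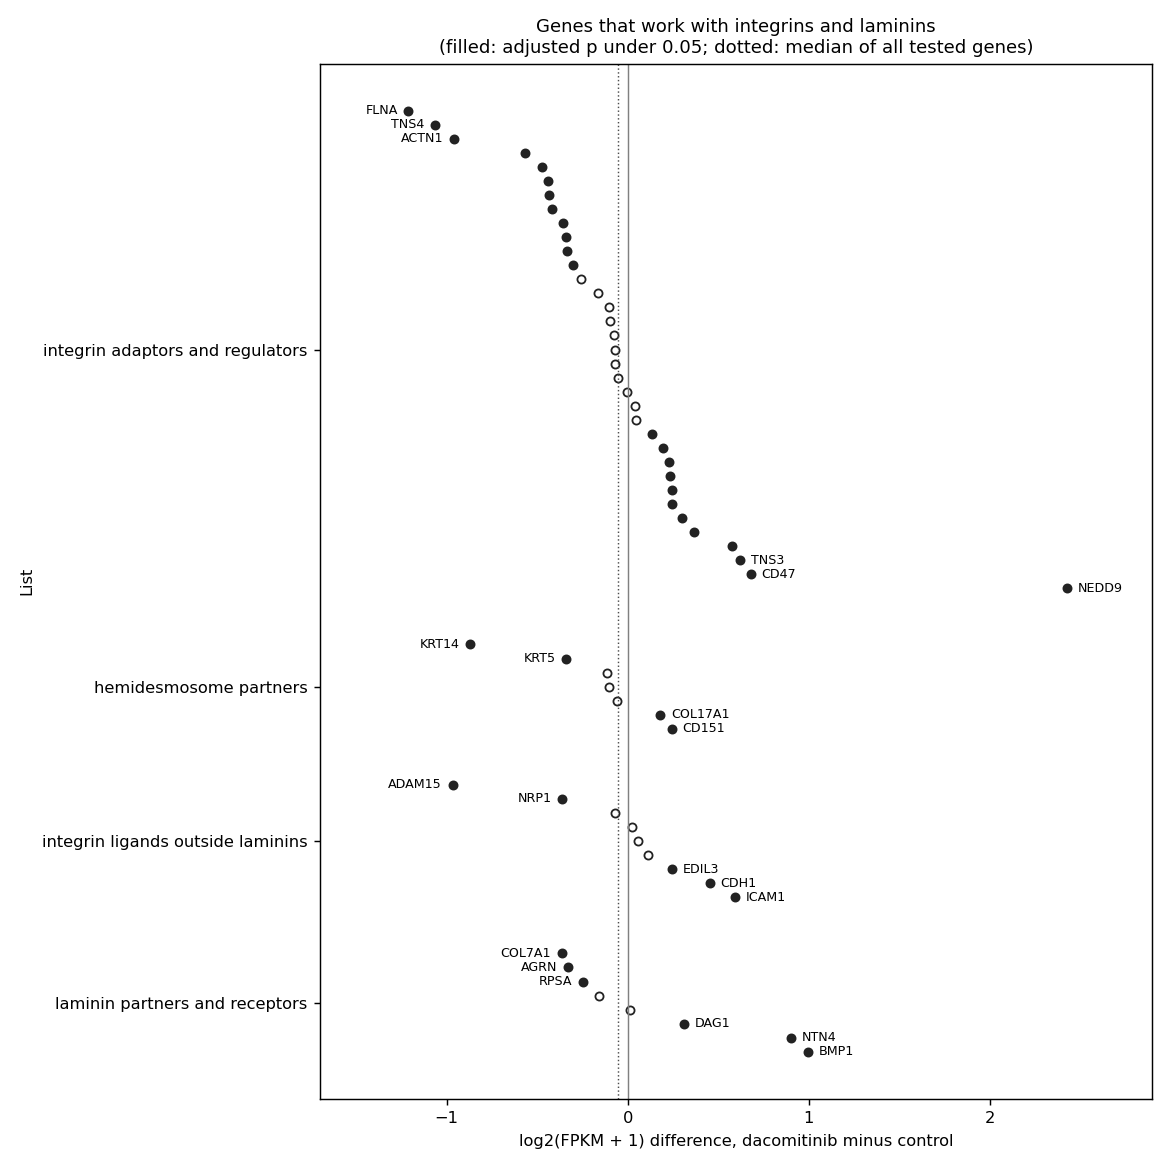
Log2(FPKM + 1) difference, dacomitinib minus control, as deposited, of the tested genes in 4 lists of genes that work with integrins and laminins, filled where the adjusted p is under 0.05. In each list points lie on both sides of 0, from -1.21 for FLNA to 2.43 for NEDD9; of the 19 filled points left of 0, 11 did not pass in TPM, where 2 of them lay right of 0.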

How the data were processed

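RNA was measured by sequencing of total RNA libraries (NEBNext Ultra RNA kit, per the labels' protocols) from 3 dacomitinib and 3 control samples of HaCaT cells. The deposited values are FPKM per gene, made by the authors with their own library sizes. The submitters' processing notes name CASAVA, fastp, HISAT2, featureCounts and DESeq2 1.20.0 with build GRCh38, and give no role for each. The strand setting of the counting is not given in those notes, so overlapping and antisense genes cannot be told apart.

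FPKM times the authors' gene length gave whole fragments for 100% of values in every library, within 0.01 of a fragment, so fragments were recovered from the deposited table. The test was limma 3.58.1 (R 4.3.3) with a trend on log2(FPKM + 1), on the whole table, for the 13748 genes with a mean of at least 1 FPKM. P-values were adjusted by Benjamini and Hochberg over these genes, two-sided, with a threshold of 0.05, and differences are dacomitinib minus control. A pseudocount of 1 understates the change of weakly expressed genes. Shares and ratios within a library were compared by an exact permutation test over libraries (scipy 1.17.1). Errors of differences are SE, and those of levels are SD over 3 libraries.

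The 17 alternatives were pseudocounts of 0.1 and 0.5, a filter at 5 FPKM and none, TPM, median-ratio and quantile scaling, limma without trend and with robust variances, a replicate block, voom on the recovered fragments, and leaving out each library. The procedure was also tested on simulated data. It recovered 75.5% of log2 changes of 0.5 and 86% of those of 1, with median estimates of 0.44 and 0.86. No shift in scaling between the groups was simulated, so the dependence on scaling was not tested there. Members and the 10 gene lists were chosen with earlier results of these data known. Some genes that the naming rule or the lists also select, and a measure built on them, are not reported here. Every member described is accounted for; from each list of partners up to 3 genes with the largest rise and 3 with the largest fall past the threshold were named, and genes named outside this rule were chosen after their values were seen. Sequences are from RefSeq.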

Additional observations from a re-analysis of the deposited data

How the results depend on the processing

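Of the 17 alternatives, TPM moved the counts of called members most. In TPM, 5779 of all genes tested were higher and 2721 lower (3493 and 4778 as deposited), and 10 members were higher and 3 lower (5 and 9 as deposited). Of the genes in the 4 partner lists, 30 were higher and 8 lower (19 each as deposited). With a filter at 5 FPKM, 1946 genes were higher, since fewer genes were tested. In TPM the sign turned for ITGA3 (0.22), ITGA5 (0.18), ITGB1 (0.12), ITGB6 (0.30), LAMA5 (0.031) and LAMC1 (0.12). After quantile normalization it turned for ITGA3 (0.12), ITGB6 (0.22) and LAMC1 (0.084), and with median ratios for ITGB6 (0.073). Leaving out 1 library gave -0.13 to 0.027 for ITGA5 and -0.077 to 0.058 for ITGB6, and it changed calls of ITGB1, LAMA3, ITGA3 and ITGA4. Of 319 log2 differences of members under alternatives, 285 kept direction and side of the threshold, 12 lost the threshold, 8 gained it and 14 changed sign.

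With the replicate numbers as a block, 14 members were called, 5 higher and 9 lower, as without it. Across all genes 7883 were called with the block and 8271 without. The numbers are not taken to pair the samples: libraries of equal number deviated together with correlations of 0.03, -0.02 and 0.04. With 3 libraries a group and 15171200 to 16179273 fragments with dacomitinib and 14960650 to 16166582 in controls, the 18 members under 1 FPKM had at most 59 fragments in a library and were not tested.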

Other observations

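Non-coding genes named after members were sparse and were not part of the comparisons above. Summed over 3 libraries, ITGA9-AS1 had 368 fragments with dacomitinib and 193 in controls, LAMC1-AS1 had 121 with dacomitinib and 87 in controls, and LAMA5-AS1 had 58 with dacomitinib and 27 in controls. ITGB2-AS1 had 44 fragments with dacomitinib and 26 in controls, ITGB1-DT 28 and 5, ITGA6-AS1 22 and 34, and ITGB5-AS1 4 and 4, in the same order. LAMC1-AS1 and LAMA5-AS1 passed the expression limit, and neither was called by limma (adjusted p = 0.497 and 0.195). Where such a gene overlaps its namesake, reads of the pair cannot be told apart without strand.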
